A study of Mus musculus with 6 samples.

Results

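The genes of 10 C-type lectin receptors carried by myeloid cells (Clec4a1, Clec4a2, Clec4a3, Clec4d, Clec4e, Clec4n, Clec5a, Clec7a, Clec10a and Clec12a) were followed in mouse leukemia cells that carry the MLL-AF9 fusion (MA9) and a floxed Brd9 gene. The 10 genes were taken by name out of the 55487 genes of a table of normalized counts, and all 10 were found. Of these, 9 were tested because their 6-library mean reached 10 normalized counts, and Clec4n, whose mean was 9.84, was left untested.

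All 6 libraries came from GFP+ bone marrow cells of femora and tibiae. The donor cells were CD45.2(+) Mx1-Cre Brd9fl/fl MA9 on C57BL/6. The recipients were CD45.1(+) CD45.2(-) mice that had been irradiated (2 fractions of 450 cGy by the labels) before receiving 1000 cells. Recipients were then given 3 injections on alternate days of either PBS (n = 3) or pIpC (n = 3, 20 mg/kg), and marrow was collected 10 days after injection. The methods give the recipients as 6 weeks old and the irradiation as sublethal (450 cGy), which differs from the labels. Mx1-Cre is driven by an interferon-responsive promoter, and pIpC, a synthetic double-stranded RNA, induces interferon and so Cre. By the labels, floxed Brd9, Mx1-Cre and MLL-AF9 were shared by both groups. No group without Cre received pIpC, so that the effects of pIpC itself and of a deletion cannot be told apart. The labels do not say that replicates were separate mice, and p-values therefore measure the spread between these samples.

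C-type lectin receptors sit on the surface of macrophages, neutrophils, monocytes and dendritic cells and bind sugars, lipids or proteins of microbes and of damaged cells. Some carry or recruit an activating motif (ITAM) that is phosphorylated by Src family kinases and engages the kinase Syk, from which a signal runs through Card9, Bcl10 and Malt1 to NF-kappaB and cytokine genes. Others carry an inhibitory motif (ITIM) that recruits the phosphatases encoded by Ptpn6, Ptpn11 and Inpp5d and restrains such signals.

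Of the 10 genes, 9 lie on chromosome 6 (GRCm38) and 1, Clec10a, lies on chromosome 11. The 250 bases before the start of 8 of them were available from RefSeq (GRCm38.p6), and 4 are shown because they belong to 2 of the genes that rose (Clec5a and Clec4e) and to the 2 genes that fell (Clec7a and Clec12a). They are written 5′ to 3′ along each gene's strand, and capitals mark matches to motifs of factors known in myeloid cells. The windows are chr6:40585806-40586055 (minus strand) for Clec5a, chr6:123289872-123290121 (minus strand) for Clec4e, chr6:129472780-129473029 (minus strand; the first of 2 listed windows) for Clec7a and chr6:129349994-129350243 (plus strand) for Clec12a.
Clec5a: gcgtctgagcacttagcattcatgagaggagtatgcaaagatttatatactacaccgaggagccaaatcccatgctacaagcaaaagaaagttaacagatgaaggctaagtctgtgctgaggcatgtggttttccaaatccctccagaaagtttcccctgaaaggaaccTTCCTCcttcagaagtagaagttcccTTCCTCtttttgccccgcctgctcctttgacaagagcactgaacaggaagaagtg
Clec4e: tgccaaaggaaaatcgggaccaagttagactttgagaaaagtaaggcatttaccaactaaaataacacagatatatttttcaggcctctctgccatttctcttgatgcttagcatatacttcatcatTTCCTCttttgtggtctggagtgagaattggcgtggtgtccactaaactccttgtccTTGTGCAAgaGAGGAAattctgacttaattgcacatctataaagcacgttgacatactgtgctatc
Clec7a: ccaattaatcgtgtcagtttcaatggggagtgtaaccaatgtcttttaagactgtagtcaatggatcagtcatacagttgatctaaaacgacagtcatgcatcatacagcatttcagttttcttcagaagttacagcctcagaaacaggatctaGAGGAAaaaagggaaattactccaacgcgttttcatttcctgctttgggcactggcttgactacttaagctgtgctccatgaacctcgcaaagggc
Clec12a: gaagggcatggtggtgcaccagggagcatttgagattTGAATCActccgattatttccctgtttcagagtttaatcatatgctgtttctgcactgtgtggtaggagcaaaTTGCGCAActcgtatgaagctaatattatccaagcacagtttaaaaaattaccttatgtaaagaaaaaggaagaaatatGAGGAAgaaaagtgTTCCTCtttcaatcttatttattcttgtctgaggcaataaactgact

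The search covered 4 motifs on both strands. Distances are counted from the RefSeq start, which can differ from the GENCODE positions given for each gene below. The windows of Clec12a and Clec4a2 lie inside the genes as GENCODE annotates them. GAGGAA, a core bound by PU.1 and other ETS factors, was found in 6 of the 8 windows, against 23.1% of all 27025 RefSeq promoter windows of the same length. It lay 81 and 55 bases before the Clec5a start, 123 and 56 bases before that of Clec4e, 96 bases before that of Clec7a and 61 and 47 bases before that of Clec12a. It was also in the windows of Clec4a1 and Clec4d, and these letters were not in those of Clec4a2 and Clec4a3. TTGCNNAA (C/EBP) was in the windows of Clec4e and Clec12a, against 9.55% of all promoters, and TGANTCA (AP-1) was in that of Clec12a, against 6.87%. The NF-kappaB motif was in 0 of the 8 windows, against 1.4% of all promoters. The capitals of different motifs did not overlap in the 4 windows shown. The motif was thus in windows of genes that rose and of genes that fell.

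Before the receptors, the targeted gene was examined in every library. Brd9 stood at 1927, 1946 and 1632 normalized counts in the PBS libraries and at 2036, 2263 and 2011 in those labelled pIpC (log2 fold change 0.20, SE 0.13, limma adjusted p = 0.259). The whole-gene count was therefore not lower in the libraries labelled pIpC, although a deletion confined to some exons need not lower it. Every direction given here is one between libraries so labelled. Reads on genes, recovered from the steps in the values, ranged from 19277439 to 23586722 per library. The X-linked noncoding RNA Xist followed the label in every library (46.6 ± 28.8 against 21515 ± 4104 normalized counts, SD, n = 3 each). It had 14 to 72 reads per PBS library and 18465 to 25617 per pIpC-labelled library. Whether the groups differ in the sex or source of their cells was not tested. Such a difference cannot be told apart from the label in any result below. PBS replicate 3 stood apart. Its chi-square per gene against the other PBS libraries was 171 and 194, where the other pairs within a group ranged from 6.30 to 16.8. Its deviations from the 6-library mean were also related to transcript length (Spearman's rho = -0.338 across genes, against 0.0469 to 0.202 in the others; genes are not independent replicates).

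Markers of the cell types a myeloid sample could hold moved with the label. Over all 15020 genes tested, 25.0% were higher and 20.4% lower (limma adjusted p under 0.1). These shares stand beside the lists of this paragraph and the next, and whether any list differed from them was not tested. All 15 neutrophil markers were higher, with Ly6g rising most (log2 fold change 8.23) and Csf3r, the G-CSF receptor, least (0.94), and their summed normalized count was 30166 to 55060 in PBS and 2116528 to 2173618 in pIpC-labelled libraries. Of 12 monocyte markers 8 were higher and 3 lower (F13a1 4.88, Ms4a4c -1.41), with sums of 31539 to 34312 against 44507 to 49600. Of 14 macrophage markers 11 were higher and 3 lower (Spic 5.55, Gpnmb -4.60), with sums of 10564 to 14977 against 6872 to 9223. Of 11 dendritic cell markers 10 were tested, 9 were higher and Cd300c was not called (-0.44, adjusted p = 0.341), with Dpp4 at 2.21 against 339.4 normalized counts and sums of 291 to 494 against 1929 to 2432.

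Lists for erythroid, lymphoid and other granulocytic cells were examined too. All 12 erythroid markers (Tfrc 0.67, a call lost without any 1 pIpC replicate; Hbb-bs at least 288-fold higher against a floor of 3 reads per library; sums of 1859 to 3087 against 7739 to 10031) and all 12 B cell markers (Cd79b 1.25, Pax5 at least 72.5-fold higher; sums of 138 to 307 against 1561 to 2852) were higher. So were the 7 tested of 12 T and NK cell markers (Cd4 2.19, Ncr1 at least 15.9-fold higher; sums of 195 to 328 against 4121 to 4685). Of 10 basophil, mast cell and eosinophil markers 9 were tested, 6 were higher and 1, Siglecf (-3.11), was lower (Prss34 at least 735-fold higher; sums of 7006 to 7810 against 5785 to 8092). Some tested markers were at or under 3 reads in each PBS library. These were 6 erythroid, 6 B cell, 1 T and NK cell, 1 dendritic cell and 3 basophil, mast cell and eosinophil markers. They passed the filter through the pIpC-labelled libraries and could not be called lower. The same holds for any other tested marker with a PBS mean under 10. No reads were counted in PBS libraries for Ccr7, Slc4a1, Rhag, Ms4a1, Trac and Fcer1a. Of 13 genes of the MLL-AF9 program 10 were lower and 2 higher (Hoxa10 -6.38, Mef2c 7.72), with sums of 47235 to 59610 against 20787 to 21730. The part of cell composition in the receptor results was not tested, and in bulk RNA a change in the number of cells of a type cannot be told apart from a change of RNA per cell.

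Of the 9 receptor genes tested, 6 rose with the pIpC label, 2 fell and 1 was not called (limma, Benjamini-Hochberg adjusted p under 0.1). Over all 15020 genes tested, 25.0% were higher and 20.4% lower by the same rule, and the median log2 fold change was 0.01. The receptors' median was 1.72. Of the 6 that rose, Clec4a1 had a PBS mean of 5.02, under the filter of 10. It passed the filter through the pIpC-labelled libraries and could not be called lower. All 8 called receptors had groups that did not overlap, as did 56.8% of all genes tested. The rises were in receptors that couple to activating adapters (Clec5a, Clec4e and Clec4d), in Clec4a1 and Clec4a3 of the DCIR family and in the galactose-binding Clec10a. The falls were in the beta-glucan receptor Clec7a and in the inhibitory Clec12a.

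**Figure D1:**
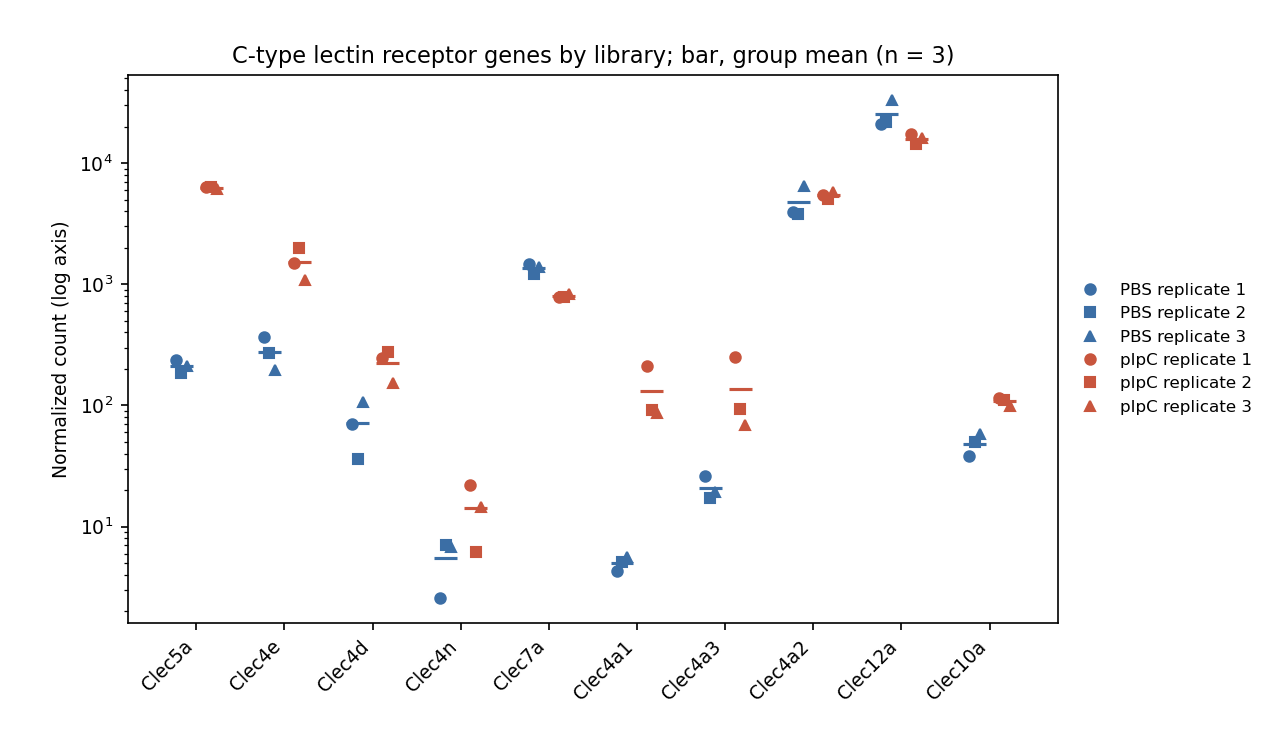
Normalized counts (log axis) of the 10 receptor genes in each of the 3 PBS and 3 pIpC-labelled libraries, with a bar at each group mean. Clec5a moved from 211 to 6280, Clec12a was highest in every library, and the groups overlapped for Clec4a2 and Clec4n only.

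Clec5a (MDL-1), a receptor without a signalling motif of its own that pairs with the adapters encoded by Tyrobp and Hcst, had the largest change (ENSMUSG00000029915; chromosome 6, 40574894 to 40585821, minus strand). Its normalized counts were 237, 184 and 212 in PBS and 6383, 6318 and 6140 in pIpC-labelled libraries. The 3 pIpC-labelled values had an SD of 125, the smallest spread relative to its mean of any of the 10 genes in either group. The means rose 29.8-fold, from 211 ± 26.4 to 6280 ± 125 (log2 fold change 4.90, 95% confidence interval 4.58 to 5.21, limma adjusted p = 1.03e-05). This log2 fold change ranked 559 by size among the 15020 genes tested.

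Clec4e (Mincle; chromosome 6, 123281789 to 123289870, minus strand) binds glycolipids of mycobacteria and signals through the Fc receptor gamma chain encoded by Fcer1g. Its normalized counts were 370, 269 and 195 in PBS and 1494, 1993 and 1082 in pIpC-labelled libraries. The groups lay apart, although pIpC-labelled values differed among themselves by more than those of Clec5a. The mean rose 5.48-fold, from 278 ± 88.2 to 1523 ± 456 (log2 fold change 2.45, SE 0.31, limma adjusted p = 0.00102).

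Clec4d (MCL; chromosome 6, 123262111 to 123275265, plus strand) pairs with Mincle on the cell surface and is encoded beside it. It was counted at 70.1, 36.4 and 107.5 in PBS and at 245, 274 and 153 in pIpC-labelled libraries. The highest PBS value, in replicate 3, was below the lowest pIpC-labelled value, in pIpC replicate 3. The mean rose 3.14-fold, from 71.3 ± 35.6 to 224 ± 63.1 (log2 fold change 1.72, SE 0.43, limma adjusted p = 0.0203). The PBS spread of Clec4d was the widest of the 10 genes, at 49.8% of the mean.

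Clec4n (Dectin-2; chromosome 6, 123229843 to 123247021, plus strand), a receptor for fungal mannans that also uses Fcer1g, was near the limit of detection. Its normalized counts were 2.60, 7.09 and 6.79 in PBS and 22.0, 6.13 and 14.5 in pIpC-labelled libraries. One pIpC-labelled value lay among the PBS values. With 3 to 7 reads per PBS library and 6 to 22 per pIpC-labelled library, a difference was not detectable at this depth (5.49 ± 2.51 against 14.2 ± 7.92; exact 2-sided permutation p = 0.3, where the smallest p that 3 against 3 allows is 0.1).

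Clec7a (Dectin-1; chromosome 6, 129461591 to 129472779, minus strand) is the receptor for fungal beta-glucans and carries its own activating motif. Its normalized counts were 1462, 1227 and 1380 in PBS and 783, 780 and 831 in pIpC-labelled libraries. All 3 pIpC-labelled values were lower than each PBS value. The mean was 1.70-fold lower, 798 ± 28.4 against 1356 ± 119 (log2 fold change -0.76, 95% confidence interval -1.05 to -0.47, limma adjusted p = 0.00318). Unlike the other 9 genes, which are annotated as protein coding, Clec7a is annotated in GENCODE as a polymorphic pseudogene.

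Clec4a1 and Clec4a3 belong to the DCIR family of receptors, first known from dendritic cells, and lie next to each other on chromosome 6 (122921848 to 122934619 and 122952515 to 122969875, both plus strand). Clec4a1 was nearly absent from PBS libraries, at 4.33, 5.06 and 5.66 normalized counts (5 reads in each), and reached 213, 92.0 and 87.0 in pIpC-labelled libraries. The mean rose 26.0-fold, from 5.02 ± 0.667 to 131 ± 71.1 (log2 fold change 4.33, SE 0.41, limma adjusted p = 0.000308). Clec4a3 was counted at 26.0, 17.2 and 19.2 in PBS and at 251, 94.0 and 68.7 in pIpC-labelled libraries. Its mean rose 6.62-fold, from 20.8 ± 4.58 to 138 ± 98.5 (log2 fold change 2.46, SE 0.50, limma adjusted p = 0.0085). Without pIpC replicate 1 its log2 fold change was 1.92 (limma adjusted p = 0.0137). In both genes pIpC replicate 1 was the highest and the other pIpC-labelled libraries still lay above all PBS libraries.

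Clec4a2 (DCIR1; chromosome 6, 123106428 to 123143999, plus strand) is a member of the same family that carries an inhibitory motif. Its normalized counts were 3954, 3789 and 6486 in PBS and 5493, 5084 and 5760 in pIpC-labelled libraries. The groups overlapped through PBS replicate 3, the highest of the 6 libraries. No change was called (4743 ± 1512 against 5446 ± 341, log2 fold change 0.24, 95% confidence interval -0.29 to 0.77, limma adjusted p = 0.424). Without PBS replicate 3 the log2 fold change was 0.49 and passed the test (limma adjusted p = 0.000373), so that this call rests on 1 library.

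Clec12a (MICL; chromosome 6, 129342691 to 129365303, plus strand), an inhibitory receptor that recognizes uric acid crystals, was the most highly counted gene of the 10. Its normalized counts were 21041, 21956 and 33226 in PBS and 17283, 14441 and 16058 in pIpC-labelled libraries. The lowest PBS value lay above the highest pIpC-labelled value, and PBS replicate 3 was well above the other PBS libraries. The mean was 1.60-fold lower, 15927 ± 1426 against 25408 ± 6786 (log2 fold change -0.65, 95% confidence interval -1.16 to -0.14, limma adjusted p = 0.0554). This call was lost when pIpC replicate 1, 2 or 3 was left out, with log2 fold changes of -0.71, -0.58 and -0.65 and limma adjusted p of 0.116, 0.193 and 0.156. Without PBS replicate 3 it was -0.44, and no setting tried gave a rise.

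**Figure D2:**
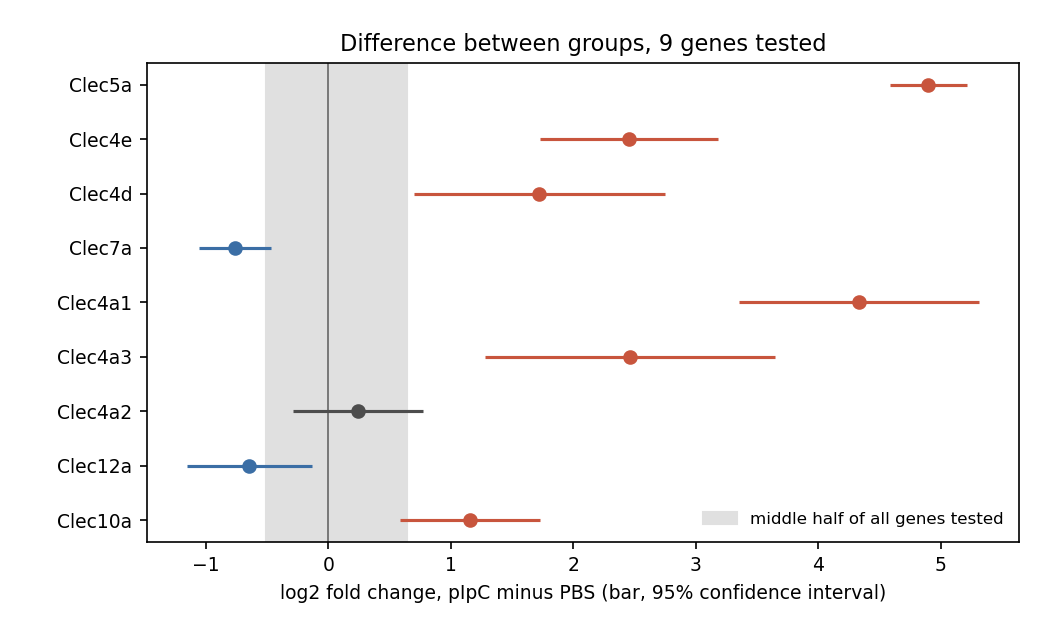
Log2 fold changes (pIpC-labelled minus PBS) of the 9 receptor genes tested, with 95% confidence intervals; red marks higher, blue lower and gray not called, and the gray band holds the middle 50% of all genes tested (-0.51 to 0.64). The interval of Clec4a2 crosses 0, and those of Clec5a (4.58 to 5.21) and Clec4a1 (3.35 to 5.31) lie farthest from the band.

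Clec10a (MGL1; chromosome 11, 70156197 to 70170834, plus strand) takes up glycoproteins with terminal galactose or N-acetylgalactosamine and is used as a marker of some macrophages and dendritic cells. It was counted at 38.1, 49.6 and 57.7 in PBS and at 115, 110 and 98.6 in pIpC-labelled libraries. The groups lay apart, and the mean rose 2.23-fold, from 48.5 ± 9.87 to 108 ± 8.34 (log2 fold change 1.16, SE 0.24, limma adjusted p = 0.00948). Its paralog and neighbor Mgl2, within the same 40.5 kb, fell by 1.44 on the log2 scale, from a mean of 3452 to 1284 (limma adjusted p = 0.0004). The log2 ratio of Clec10a to Mgl2 was -6.41, -6.12 and -5.90 in PBS and -3.69, -3.29 and -3.68 in pIpC-labelled libraries, a difference of 2.59 without overlap (exact 2-sided permutation p = 0.1, the smallest possible).

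The coding sequences of Clec10a and Mgl2 were 90.4% identical over aligned bases, which covered 79.6% of the longer sequence. In Clec10a transcripts, 148 of 3331 stretches of 75 bases (4.44%) also occurred in Mgl2. Clec10a counts were 1.15% to 1.64% of those of Mgl2 in PBS libraries and 7.70% to 10.2% in pIpC-labelled libraries. Reads from the shared stretches cannot be told apart between both genes, and the Clec10a level is uncertain to that extent; their part in its change was not tested. Among the other 9 genes only Clec4a2 shared such stretches with other genes (97 of 2990, 3.24%, with Clec4a4 and Clec4b1). Coding identity over aligned bases within the DCIR genes was 76.7% for Clec4a2 and Clec4a3, 73.4% for Clec4a1 and Clec4a3 and 72.6% for Clec4a1 and Clec4a2. The remaining pairs of receptors, Mgl2 included, ranged from 57.2% to 70.7%. Clec4a1 and Clec4a3 shared no stretch of 75 bases with another gene.

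Levels were compared between genes as normalized counts per kilobase of merged exons. In PBS libraries the order was Clec12a (4596 ± 1228), Clec4a2 (1621 ± 517), Clec7a (514 ± 45.3), Clec4e (56.0 ± 17.8), Clec5a (54.9 ± 6.88), Clec4d (44.6 ± 22.2), Clec10a (16.7 ± 3.41), Clec4a3 (15.7 ± 3.45), Clec4n (3.87 ± 1.77) and Clec4a1 (3.22 ± 0.428). The ranges overlapped between neighbors from Clec4e to Clec4d, for Clec10a and Clec4a3, and for Clec4n and Clec4a1. In pIpC-labelled libraries Clec12a (2881 ± 258) and Clec4a2 (1861 ± 116) were again the highest, and Clec5a followed at 1636 ± 32.7. Clec4e (307 ± 91.9) overlapped Clec7a (302 ± 10.8), and Clec4d (140 ± 39.5), Clec4a3 (104 ± 74.2) and Clec4a1 (83.8 ± 45.6) overlapped one another in turn, above Clec10a (37.2 ± 2.88) and Clec4n (10.0 ± 5.58).

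As a share of the summed per-kilobase count of the 10 genes, Clec12a was 64.2%, 67.4% and 67.1% in PBS and 40.1%, 37.1% and 40.1% in pIpC-labelled libraries. Clec5a was 1.04%, 0.814% and 0.616% in PBS and 21.3%, 23.4% and 22.0% in pIpC-labelled libraries. The Clec12a shares were close among libraries of a group, PBS replicate 3 included, whereas the Clec5a share in PBS was lowest in replicate 3. Clec4a2 held 23.2% ± 1.43 and 25.3% ± 1.62 (SD, n = 3 each). The share of Clec7a was 7.69% ± 1.76 against 4.12% ± 0.276, and that of Clec4e was 0.872% ± 0.412 against 4.19% ± 1.38. The sum itself was 5929, 5895 and 8954 in PBS and 7797, 7036 and 7253 in pIpC-labelled libraries, with overlap. Without Clec12a it was 2123, 1923 and 2944 against 4671, 4423 and 4348, without overlap.

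**Figure D3:**
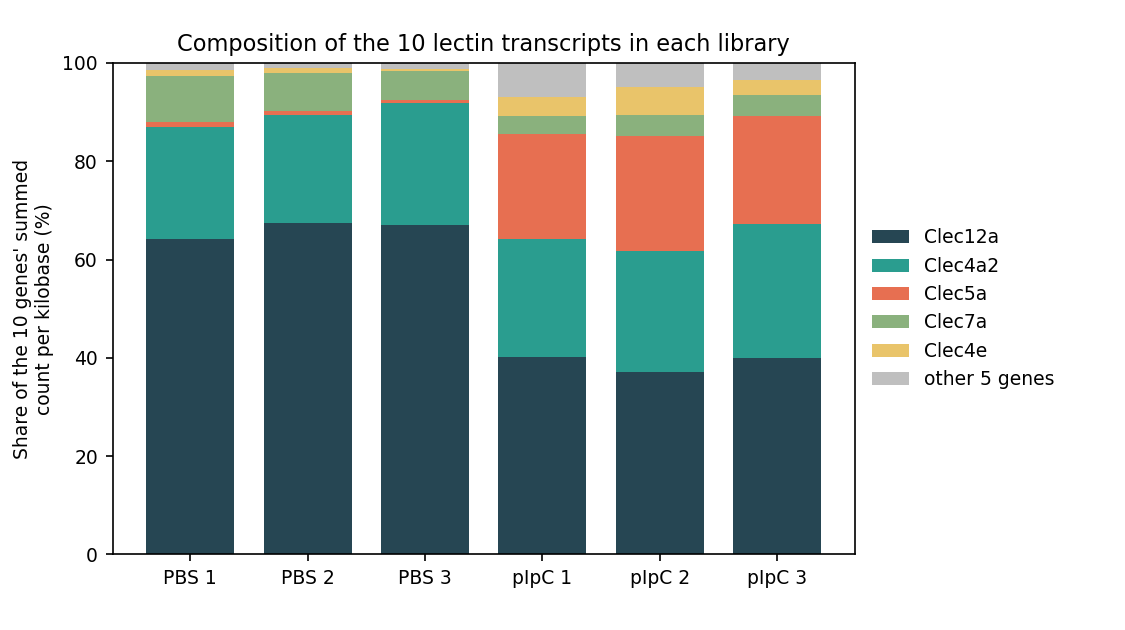
Share (%) of each gene in the summed normalized count per kilobase of the 10 receptor genes, for each of the 6 libraries. Clec12a made up 64.2% to 67.4% in PBS and 37.1% to 40.1% in pIpC-labelled libraries, and Clec5a 0.616% to 1.04% and 21.3% to 23.4%.

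A group of 6 receptor genes lies within 368.0 kb of chromosome 6 that runs from Clec4a1 to Clec4e and holds 9 C-type lectin genes in all. Of these 9, 7 were tested, 6 were higher, 0 were lower and Clec4a2 was not called. Over all genes tested 25.0% were higher and 20.4% lower, which stands beside the second stretch below too. The other genes of the stretch were Clec4b1 (log2 fold change 3.88, 1.47 to 31.1 normalized counts, limma adjusted p = 0.00365), Clec4b2 (2.27, 146 to 694, limma adjusted p = 0.000998) and the untested Clec4a4 (3.65 and 3.31 normalized counts). Clec4b1 had at most 3 reads in each PBS library and was at least 10.3-fold higher against that floor. Clec4b1 and Clec4a1 (5.02 in PBS) passed the filter through the pIpC-labelled libraries and could not be called lower. Clec4a2 had by far the highest count there and lay between Clec4b1 and Clec4b2, both of which rose. Clec4a2 overlapped 1 annotated gene, the pseudogene Gm44132 on the same strand, whose count was at most 7.74.

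Clec12a and Clec7a lie in a second stretch of 164.5 kb that ends at Olr1, the receptor for oxidized low-density lipoprotein. All 7 lectin genes in it were tested, 4 were higher and 3 lower. The 4 between Clec12a and Clec7a rose, namely Clec12b (log2 fold change 1.36), Clec1b (2.28), Clec9a (4.29), a receptor of cross-presenting dendritic cells, and Clec1a (4.04). Their means in PBS were 9.40, 20.4, 6.67 and 1.13 normalized counts, and that of Clec1a is too low for a fold to be read closely. Clec12b, Clec9a and Clec1a, with PBS means under 10, passed the filter through the pIpC-labelled libraries and could not be called lower. The pattern of rises between falls therefore partly follows from the filter. The 3 genes that fell, Clec12a, Clec7a and Olr1 (log2 fold change -0.59, mean 2845 to 1849, limma adjusted p = 0.0572), were the 3 with the highest counts in the stretch. The Olr1 call was lost when any library except PBS replicate 3 was left out (highest limma adjusted p = 0.163).

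**Figure D4:**
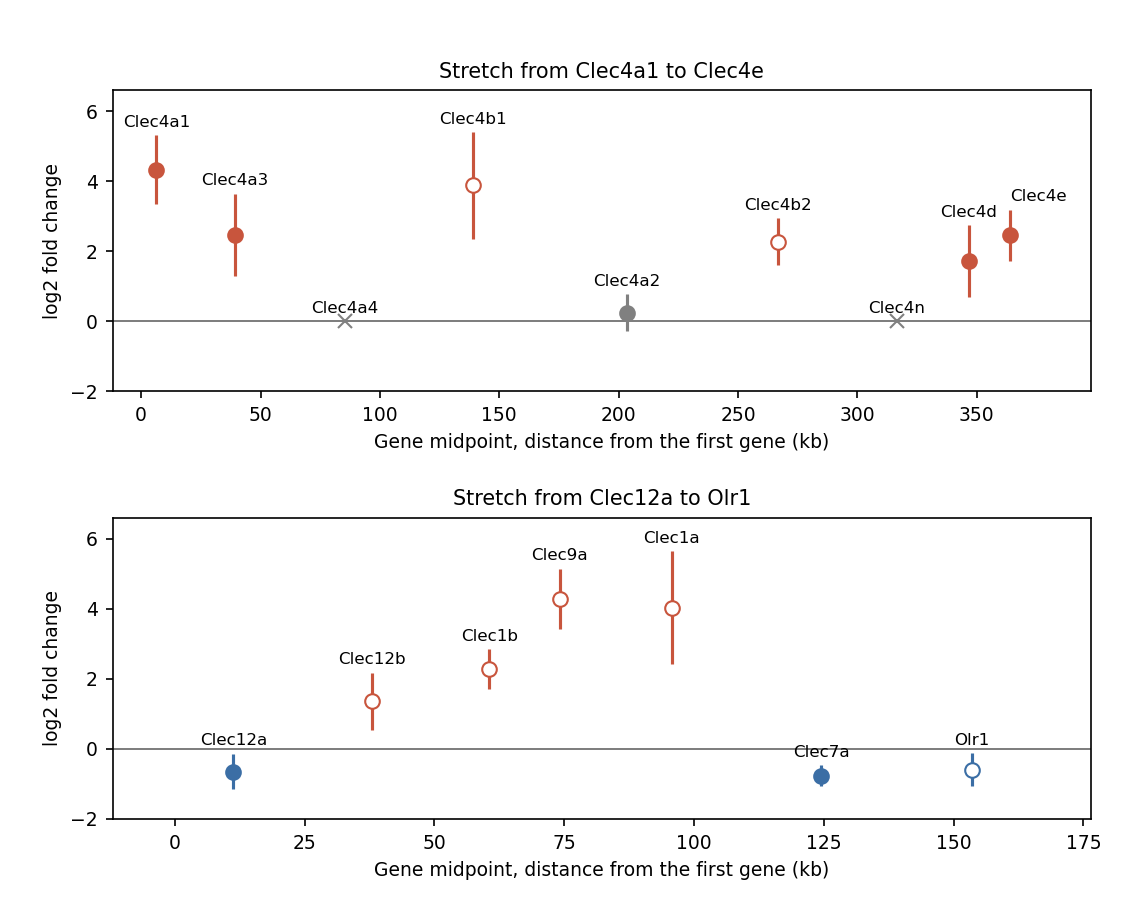
Log2 fold change (pIpC-labelled minus PBS, 95% confidence interval) of the lectin genes along the 368.0 kb and 164.5 kb stretches, by the distance of each gene's midpoint from the first gene in kb. Red marks higher, blue lower and gray not called, filled points are among the 10 receptors, and open points are other lectin genes. Crosses on the zero line mark Clec4a4 and Clec4n, which were not tested. The upper stretch holds 6 rises and the lower has 4 rises flanked by 3 falls. Of the rises, those of Clec4a1, Clec4b1, Clec12b, Clec9a and Clec1a are in genes that passed the filter through the pIpC-labelled libraries and could not be called lower.

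Of 72 other genes with a C-type lectin domain, 41 were tested, of which 24 (58.5%) were higher, 11 (26.8%) lower and 6 not called, with a median log2 fold change of 2.27. The median was the same with the 8 tested genes that were at or under 3 reads in each PBS library set to their bound. These 8 genes passed the filter through the pIpC-labelled libraries and could not be called lower. The same holds for every other tested gene with a PBS mean under 10. Cd72 (3.40 in PBS), Selp (8.42) and Klra2 (8.95), named below, are among these, so that the share called higher and the median partly follow from the filter. With a mean of at least 50 required, 25 were tested, of which 11 were higher and 9 lower. Among called genes with a mean of at least 50, the 3 largest rises were in Cd72 (5.77), Selp (5.21) and Klra2 (4.60). Cd72, a lectin carried by B cells, was at 3.40 normalized counts in PBS. Selp encodes the P-selectin of platelets and endothelium, and Klra2 belongs to the Ly49 family of NK receptors. The 3 largest falls were in Clec18a (-6.86, from a mean of 548 to 4.26), Prg3 (-4.42), an eosinophil granule protein, and Clec2i (-3.74, from 3631 to 271). The shares among the 9 receptors tested were 66.7% higher and 22.2% lower, and whether they differed from those of other lectins was not tested.

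The adapters and kinases through which activating receptors signal were examined next. Of 23 such genes 7 were higher, 1 was lower and 15 were not called, with a median log2 fold change of 0.17. The shares over all genes tested, 25.0% higher and 20.4% lower, stand beside this list and those that follow. Whether any list differed from them was not tested. The adapters themselves were not called. Fcer1g was counted at 3428, 3397 and 7092 in PBS and at 4645, 4898 and 5129 in pIpC-labelled libraries (log2 fold change 0.17, limma adjusted p = 0.680). Tyrobp (DAP12), the partner of Clec5a, was at 8350, 7939 and 20578 in PBS and at 7015, 7251 and 7178 in pIpC-labelled libraries (-0.63, limma adjusted p = 0.214). Hcst (DAP10), its other partner, was at 366, 362 and 1017 in PBS and at 672, 556 and 679 in pIpC-labelled libraries (0.30, limma adjusted p = 0.583). In all 3 adapters PBS replicate 3 was 2 or more times the other PBS libraries. Without it their log2 fold changes were 0.52, -0.19 and 0.80, and all passed the test (limma adjusted p = 0.000161, 0.0257 and 0.000316).

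Syk, the kinase that binds phosphorylated ITAMs, was at 4677, 4175 and 2751 in PBS and at 7158, 7870 and 7758 in pIpC-labelled libraries, without overlap. It rose by 1.01 on the log2 scale (SE 0.21, limma adjusted p = 0.00976). The Src family kinases Fgr (2.08, mean 1219 to 5143, limma adjusted p = 0.000106) and Lyn (0.61, 2641 to 4029, adjusted p = 0.00457), which phosphorylate ITAMs and ITIMs, rose too. So did Plcg2 (0.61) and the NF-kappaB subunit gene Rel (0.99). Card9, the scaffold that links Syk to NF-kappaB, fell by 0.52 on the log2 scale (mean 5789 to 3965, limma adjusted p = 0.0750). The Card9 call was lost without pIpC replicate 1, 2 or 3 (limma adjusted p up to 0.196). Without PBS replicate 3, 11 of the 23 genes were higher and 3 lower.

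Of 7 genes of inhibitory signalling 3 were higher and 0 lower, with a median log2 fold change of 0.30. Dok2, an adapter that restrains Ras signalling, rose most (3.78, from a mean of 46.6 to 642, limma adjusted p = 5.17e-05). Ptpn11 (SHP-2) was at 2408, 2351 and 1421 in PBS and at 3426, 3473 and 3248 in pIpC-labelled libraries (0.75, limma adjusted p = 0.0343). Ptpn6 (SHP-1) was at 6700, 6511 and 7444 in PBS and at 8388, 8385 and 8688 in pIpC-labelled libraries (0.30, limma adjusted p = 0.0900). Inpp5d (SHIP-1) was at 4952, 4802 and 2982 in PBS and at 3990, 4124 and 4345 in pIpC-labelled libraries (0.00, limma adjusted p = 0.990). This count rested on single libraries, since it was 7 (5 higher and 2 lower, Inpp5d at -0.23 among the lower) without PBS replicate 3, and 1 (Dok2) without pIpC replicate 1 or 2. The Ptpn6 call was lost when any library except PBS replicate 3 was left out.

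Genes that rise when these receptors are engaged did not move in 1 direction. Of 16 such genes 8 were tested, of which 3 were higher and 5 lower, with a median log2 fold change of -1.09. The inflammasome gene Nlrp3 (2.60, 24.3 to 133 normalized counts, limma adjusted p = 0.0087), Il1b (2.96, 23.7 to 216, adjusted p = 0.0101) and Tnf (0.82, 382 to 676, adjusted p = 0.00656) rose. The chemokine Ccl3 was at 1381, 1269 and 1187 in PBS and at 46.9, 32.7 and 45.4 in pIpC-labelled libraries, a fall of 4.92 on the log2 scale. Ccl4 (-2.82), Egr2 (-3.12), Ptgs2 (-1.25, limma adjusted p = 0.0958, groups overlapping) and Cxcl2 (-0.94, limma adjusted p = 0.0623) also fell. The Cxcl2 call was lost without PBS replicate 2 or any pIpC replicate, and that of Ptgs2 without any library but PBS replicate 3. Il6 and Il12b had no reads in PBS libraries and at most 19 and 3 reads in a pIpC-labelled library.

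**Figure D5:**
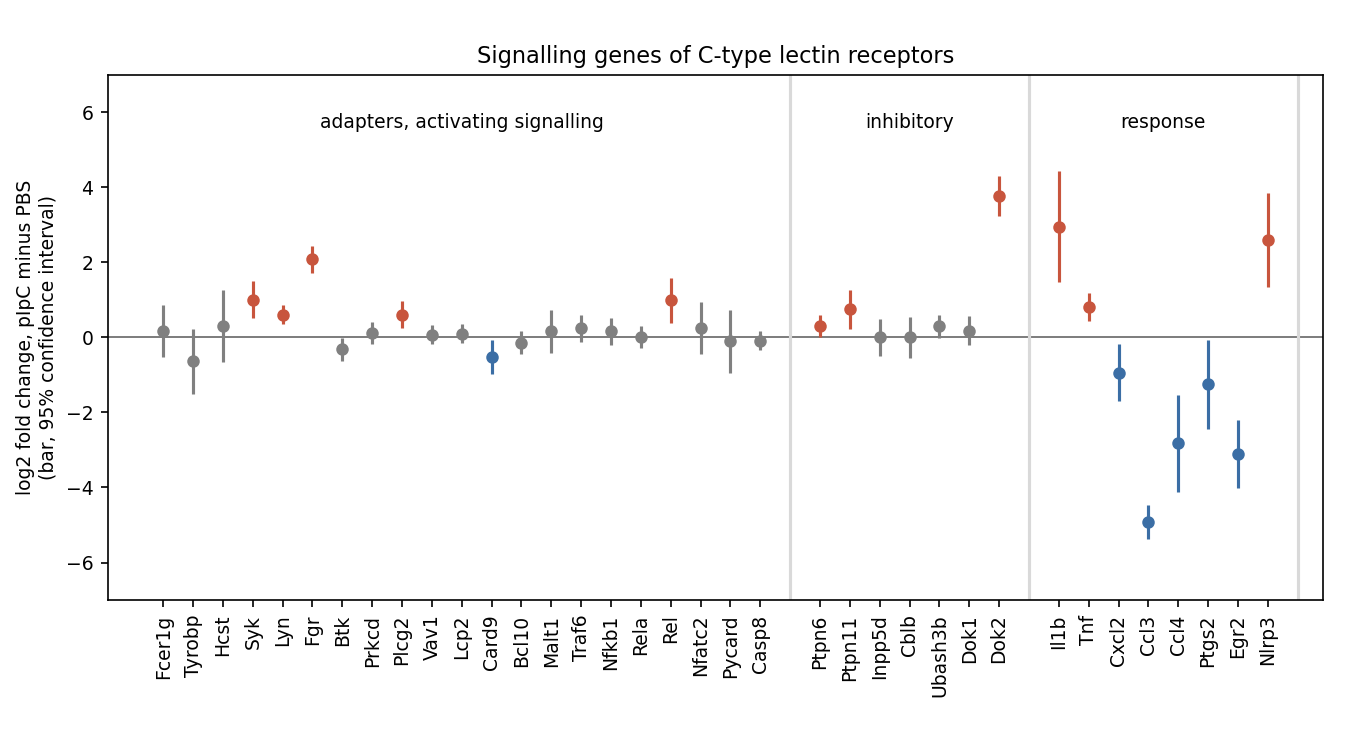
Log2 fold change (pIpC-labelled minus PBS, 95% confidence interval) of the tested genes of activating signalling (23, of which 2 are not drawn), inhibitory signalling (7) and response (8); red marks higher, blue lower and gray not called. Fgr (2.08) leads the first group, Dok2 (3.78) the second, and Ccl3 (-4.92) has the largest fall.

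The genes whose pattern over the 6 libraries was most like that of each receptor were found by the root mean square difference of log2(normalized count + 1) values after centring each gene. For Clec5a these were Mei4 and Redrum (0.12 and 0.13), both without reads in PBS, so that their likeness depends on the value added before taking logs. For Clec4a1 they were H2-Q6 (0.19) and Tgtp1 (0.21), and for Clec4a3 H2-Q5 (0.28) and P2ry6 (0.32). H2-Q6 and H2-Q5 encode MHC class I proteins, Tgtp1 a GTPase and P2ry6 a nucleotide receptor. Clec4e was most like Amotl2 (0.18) and Trps1 (0.19), and Clec4d most like Tmem140 (0.23) and the platelet glycoprotein gene Gp9 (0.24). Clec10a was most like Gimap9 (0.06) and Hdc (0.08), the histamine-forming enzyme. For Clec7a the closest genes were Tmem18 and Zfp870 (both 0.06), for Clec12a Slc52a2 and Rcl1 (both 0.04), and for Clec4a2 Syf2 (0.03) and Ubald2 (0.04). Among the receptors themselves the closest pair was Clec7a and Clec12a (0.24), and the farthest was Clec5a and Clec7a (2.83).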

How the data were processed

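Poly(A)-selected, unstranded libraries of 3 PBS and 3 pIpC-injected samples were analysed. The authors deposited 1 table of normalized counts (a signal that is the gene count scaled by 1 factor per library). The submitters' processing notes name HISAT2 2.2.1, featureCounts and edgeR on GRCm38, whereas the methods name nf-core/rnaseq (STAR, RSEM) with DESeq2. Which of them made the table is not given in the sources used here. The methods also describe c-Kit+ cells and stranded libraries. In the deposited signal 100% of values were whole multiples (within 0.01 read) of their column's smallest value, and reads were recovered from them. A total of 55141 of 55487 Ensembl identifiers matched a symbol.

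Values were tested as log2(normalized count + 1) with limma 3.58.1 (intensity trend, group only; R 4.3.3) over the 15020 genes with a mean of at least 10, at a Benjamini-Hochberg adjusted p under 0.1. A fold change on this scale understates that of low genes. edgeR 4.0.16 and DESeq2 1.42.0 on the recovered reads, other scalings, filters and added values, leaving out each library, and a replicate block were alternatives. The model was tested on simulated data. Exon lengths and positions are those of GENCODE M21 (GRCm38). Intervals and floors cover counting error only where they rest on reads. Without strand, overlapping genes cannot be separated.

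The receptors and all gene lists were chosen with earlier results of these data known. Named genes were all receptors; Brd9; Fcer1g, Tyrobp, Syk, Card9, Ptpn6, Ptpn11 and Inpp5d; the 3 largest rises and falls of each signalling or lectin list among called genes with a mean of at least 50; the extremes of each marker list; and the 2 genes most like each receptor. Some listed genes are counted but not reported here by name. Others (Xist, Hcst, Lyn, Plcg2, Rel, Ccl4, Egr2, Ptgs2, Il6, Il12b and the lectin neighbors, Mgl2 included) were named after their values were seen. Same-numbered replicates were not paired: the correlations of their deviations from group means were -0.12, 0.14 and 0.04.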

Additional observations from a re-analysis of the deposited data

How the results depend on the processing

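The 9 tested receptors were each recomputed under 18 alternatives (162 comparisons), of which 156 left direction and call in place, 4 lost a call, 2 gained one and 0 reversed. The 4 losses were those of Clec12a, whose log2 fold change ranged from -0.77 to -0.41 over all alternatives (limma adjusted p = 0.0554 as reported), without each pIpC replicate in turn and at an adjusted p under 0.05. The 2 gains were those of Clec4a2, without PBS replicate 3 and with the transcript length trend removed (log2 fold change 0.36, limma adjusted p = 0.0933), an alternative chosen after seeing the data. The number of receptors that were lower was thus 1 at an adjusted p under 0.05 and ranged from 1 to 2 when libraries were left out, and the number that were higher was 6, or 7 where Clec4a2 gained its call. Over left-out libraries Clec10a ranged from 1.00 to 1.29 (limma adjusted p up to 0.0509), Clec4d from 1.31 to 2.08 and Clec4a3 from 1.92 to 2.85. Of the other lists, the genes called in activating signalling (8) reached 14 without PBS replicate 3, and those in inhibitory signalling (3) ranged from 1 to 7 over left-out libraries and were 5 with the length trend removed. With a mean of at least 50 required, 5 of the 5 response genes tested (8 of 8 before) and 20 of 25 other lectins (35 of 41 before) were called, since fewer genes were tested. Quantile normalization moved the share of higher calls among all genes from 55.1% to 44.3% and the median of all genes to -0.12, and 6 receptors were higher and 2 lower there too. With the replicate block 6095 genes were called in place of 6808, and the block changed no call of a receptor. Counts of a few reads limit Clec4n and the PBS levels of Clec4a1.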
